A study of Mus musculus with 18 samples.

Results

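The 10 transcripts described here encode the core circadian clock of the mouse: the activators Arntl, Clock and Npas2, the repressors Per1, Per2, Per3, Cry1 and Cry2, and the nuclear receptors Nr1d1 and Nr1d2. They were chosen by gene name from the 32285 genes in the liver count table. The livers came from 3 groups of B6D2F1 mice labelled wild-type, with 6 libraries in each group. Space and Ground pups were F1 offspring of germline stem (GS) cells, which are cultured spermatogonia, derived here from DBA/2 testes. The study's methods describe an EGFP transgene in these cells. The GS cells spent 6 months frozen, aboard the International Space Station for Space pups or on Earth for Ground pups. They were then thawed and transplanted into the testes of W mice, which lack endogenous spermatogenesis. Recipients were housed with C57BL/6 females, and the pups' livers were taken at 10 weeks of age. The BDF1 group consisted of wild-type B6D2F1 mice, bred naturally according to the study, whose age the labels do not state.

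The molecular clock is a feedback loop of transcription. ARNTL (BMAL1) pairs with CLOCK or NPAS2 and activates genes that carry E-boxes, among them the Per, Cry and Nr1d genes. PER and CRY proteins then repress that activity, and NR1D1 and NR1D2 (REV-ERBα and REV-ERBβ) repress Arntl, Npas2 and Cry1. In liver the activators and the Nr1d receptors peak at nearly opposite times of day, and feeding and glucocorticoids can also move the Per genes, and the level of these transcripts in a liver depends on the hour. The labels give no hour of collection for any mouse.

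The libraries held 15407450 to 20562351 counts, and 3 counts, taken as the detection floor, corresponded to 0.134 to 0.236 CPM, the unit used below, in which counts are scaled to a common library size. All 5 hepatocyte markers examined (Alb, Apoa1, Ttr, Cps1, Cyp2e1) were counted in every library. Replicates 1 to 3 of each group had 0 to 187 Xist counts and replicates 4 to 6 had 12218 to 21557, while counts of Y-linked genes ran the other way, at 1822 to 2482 and 0 to 26. The study used males and females in each group, so the replicate sets differ in sex, and the groups were compared inside replicates 1 to 3 and inside replicates 4 to 6. The sets cannot be told apart from sex or from any difference in collection hour. Differences between the groups cannot be told apart from any difference in collection hour either. Those between pups and BDF1 also cannot be told apart from any difference in age or breeding. Albumin took 17.6% to 24.1% of counts in the pups of replicates 4 to 6 against 6.72% to 8.03% in BDF1, and Serpina6 took 2.18% to 3.43% in Space replicate 4 and Ground replicates 5 and 6 against at most 0.107% elsewhere. In bulk tissue, fewer cells of a type and less RNA per cell cannot be told apart. No source says that the livers of a group came from separate litters, so p-values measure the spread between these samples.

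Promoter sequences of the members from RefSeq (GRCm38.p6) were searched, because members differed between the replicate sets in opposite directions and the loop above is known to act through a few short sites. Of the 10 members, 9 had an entry (all but Per2), in 13 start site windows of 300 bases (250 before and 50 after the start). Both strands were searched for the E-box CACGTG, its variant CACGTT, the D-box TTATGTAA and the ROR/REV-ERB element TAGGTCA. At least 1 site was found in 6 members. Of all 32851 mouse promoter windows in the table, 7.15% held CACGTG, 4.68% CACGTT, 0.938% TTATGTAA and 2.61% TAGGTCA. The sites of an activator, of 3 repressors and of a receptor are shown 5′ to 3′ on the strand of the gene, with the motifs in capitals. They are the 30 bases around the ROR/REV-ERB element of Arntl (chr7:113207529-113207558, plus strand), and the 250 bases upstream of Per1 (chr11:69098699-69098948, plus strand), Per3 (chr4:151044666-151044915, minus strand), Cry1 (chr10:85185055-85185304, minus strand) and Nr1d1 (chr11:98775378-98775627, minus strand).
Arntl: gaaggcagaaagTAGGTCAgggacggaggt
Per1: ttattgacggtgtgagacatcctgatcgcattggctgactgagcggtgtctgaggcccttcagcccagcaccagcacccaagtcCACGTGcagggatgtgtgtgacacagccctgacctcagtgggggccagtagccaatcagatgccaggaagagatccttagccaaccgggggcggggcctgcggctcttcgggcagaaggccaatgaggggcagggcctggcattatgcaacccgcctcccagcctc
Per3: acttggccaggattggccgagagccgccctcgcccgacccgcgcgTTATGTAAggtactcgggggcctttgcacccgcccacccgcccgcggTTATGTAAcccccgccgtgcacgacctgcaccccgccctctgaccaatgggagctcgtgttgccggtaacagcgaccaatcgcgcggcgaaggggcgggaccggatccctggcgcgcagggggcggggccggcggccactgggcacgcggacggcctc
Cry1: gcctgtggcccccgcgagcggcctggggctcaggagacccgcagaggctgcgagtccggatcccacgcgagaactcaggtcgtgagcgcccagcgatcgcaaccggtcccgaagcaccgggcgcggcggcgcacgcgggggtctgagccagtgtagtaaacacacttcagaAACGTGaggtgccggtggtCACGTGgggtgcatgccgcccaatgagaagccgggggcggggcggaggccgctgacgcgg
Nr1d1: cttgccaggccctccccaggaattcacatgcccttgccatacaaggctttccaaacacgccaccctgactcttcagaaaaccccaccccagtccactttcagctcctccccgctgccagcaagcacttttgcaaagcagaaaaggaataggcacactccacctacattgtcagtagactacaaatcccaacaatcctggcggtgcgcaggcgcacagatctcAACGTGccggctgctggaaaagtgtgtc
The Arntl element lay at bases 31 to 37 after the second of its 2 listed start sites, and the window of the first had no match. The Per1 sequence lies before the first of 2 listed start sites, inside the annotated span of the gene, and the window of the second had no match. Per3 held 2 D-boxes, Cry1 held CACGTG and, on the other strand, CACGTT, Per1 held CACGTG, and Nr1d1 held CACGTT on the other strand. Cry2 also held CACGTT on the other strand. A match describes the letters of the window and is not evidence of binding.

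Per kilobase of exon, Nr1d1 had the highest level in both sets of BDF1 livers, and the order of other members differed between the sets. In replicates 1 to 3, Nr1d1 stood at 9.90 ± 6.39 CPM per kb (SD, n = 3), Cry1 at 5.53 ± 0.354, Clock at 4.19 ± 0.178 and Arntl at 3.95 ± 0.313, and the 3 Per genes came last at 0.989 ± 0.195 (Per2), 0.790 ± 0.578 (Per1) and 0.0777 ± 0.0116 (Per3). In replicates 4 to 6, Nr1d1 stood at 60.0 ± 9.06 CPM per kb and Nr1d2 at 15.3 ± 0.427, Per3 had moved from the tenth to the fourth place at 5.04 ± 1.90, and Arntl and Npas2 came last at 0.638 ± 0.411 and 0.211 ± 0.115. Neighbours such as Clock and Arntl in replicates 1 to 3, or Clock, Cry1 and Per1 in replicates 4 to 6, lay within each other's range.

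The activators were highest in replicates 1 to 3. Arntl (chr7:113207465-113314126, plus strand, mm10) encodes the partner that every activator dimer of the loop needs. It was at 29.4, 32.2 and 27.5 CPM in BDF1 replicates 1 to 3, at 33.5, 24.7 and 33.97 in Ground and at 22.2, 21.8 and 19.0 in Space. All 3 Space livers lay below all 6 others, whereas Ground and BDF1 overlapped. Arntl was far lower in replicates 4 to 6, at 8.27, 2.33 and 3.81 CPM in BDF1, 9.79, 7.09 and 9.04 in Ground and 9.03, 7.98 and 11.7 in Space. All 9 of these values were below the 9 of replicates 1 to 3, and BDF1 replicate 4 overlapped both pup groups. Neither pup group was called against BDF1 there as reported (1.00 in Space and 0.85 in Ground, edgeR adjusted p = 0.154 and 0.199), and both were called without BDF1 replicate 4 (1.64 and 1.496, edgeR adjusted p = 0.0391 and 0.0344), as was Space with one spread over 6 means (1.01, edgeR adjusted p = 0.0401). By edgeR's quasi-likelihood test with Benjamini-Hochberg adjustment over all genes, Arntl was lower in Space than in BDF1 in replicates 1 to 3 (log2 change -0.50, SE 0.129, adjusted p = 0.0368). That call was lost with a replicate block (adjusted p = 0.0555), with one spread over all 18 libraries (edgeR adjusted p = 0.339) and without any 1 of the 3 Space or 3 BDF1 livers (edgeR adjusted p from 0.0777 to 0.134). Space against Ground in the same set (-0.54, edgeR adjusted p = 0.145) was not called, and was called by DESeq2 (-0.54, adjusted p = 0.0270), with no filter on low counts (-0.55, edgeR adjusted p = 0.0405) and without Ground replicate 2 (-0.67, edgeR adjusted p = 0.00510).

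Npas2 (chr1:39193731-39363236, plus strand), which can replace CLOCK as the partner of ARNTL, was at 13.4, 12.9 and 15.1 CPM in BDF1 replicates 1 to 3, 20.7, 17.7 and 19.1 in Ground and 6.36, 8.51 and 8.92 in Space. The 3 groups did not overlap, with Space lowest and Ground highest. Npas2 was lower in Space than in BDF1 (log2 change -0.79, SE 0.143, edgeR adjusted p = 0.00862) and lower than in Ground (log2 change -1.26, SE 0.142, edgeR adjusted p = 0.0127). Ground against BDF1 gave 0.47 (SE 0.136, edgeR adjusted p = 0.0755), which was not called by edgeR and was called by DESeq2 (adjusted p = 0.0372). Among replicates 4 to 6, Npas2 was at 1.58, 0.492 and 0.953 CPM in BDF1, 1.77, 1.84 and 0.828 in Ground and 4.40, 2.52 and 2.47 in Space. The order was turned over there, since every Space liver lay above every other liver of the set, although the edgeR changes against BDF1 (1.61, adjusted p = 0.0774) and Ground (1.05, adjusted p = 0.479) were not called. The change against BDF1 was called by DESeq2 (1.63, adjusted p = 0.0128) and with one spread over 6 means (1.62, edgeR adjusted p = 0.00684). The low values rest on as few as 11 counts. With one spread fitted over all 18 libraries, the calls in replicates 1 to 3 were lost against BDF1 (edgeR adjusted p = 0.101) and Ground (0.188), and the call against Ground was also lost without Space replicate 2 (0.0736) or Ground replicate 1 (0.0867).

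Clock (chr5:76209868-76304792, minus strand), which encodes the main partner of ARNTL, varied least of the activators, by 1.91 on the log2 scale over all libraries. It was at 51.0 to 58.5 CPM in Space, 51.6 to 77.6 in Ground and 54.7 to 59.2 in BDF1 in replicates 1 to 3, and at 29.6 to 39.0, 34.2 to 50.1 and 20.5 to 36.6 in replicates 4 to 6. The groups overlapped in both sets, and edgeR called no comparison of groups for Clock as reported. Ground against BDF1 in replicates 4 to 6 (0.69, edgeR adjusted p = 0.0966) was called by DESeq2 (0.69, adjusted p = 0.0467), with one spread over 6 means (0.68, edgeR adjusted p = 0.0252) and without BDF1 replicate 4 (0.97, edgeR adjusted p = 0.0416). All 9 values of replicates 4 to 6 lay below all 9 of replicates 1 to 3.

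**Figure D1:**
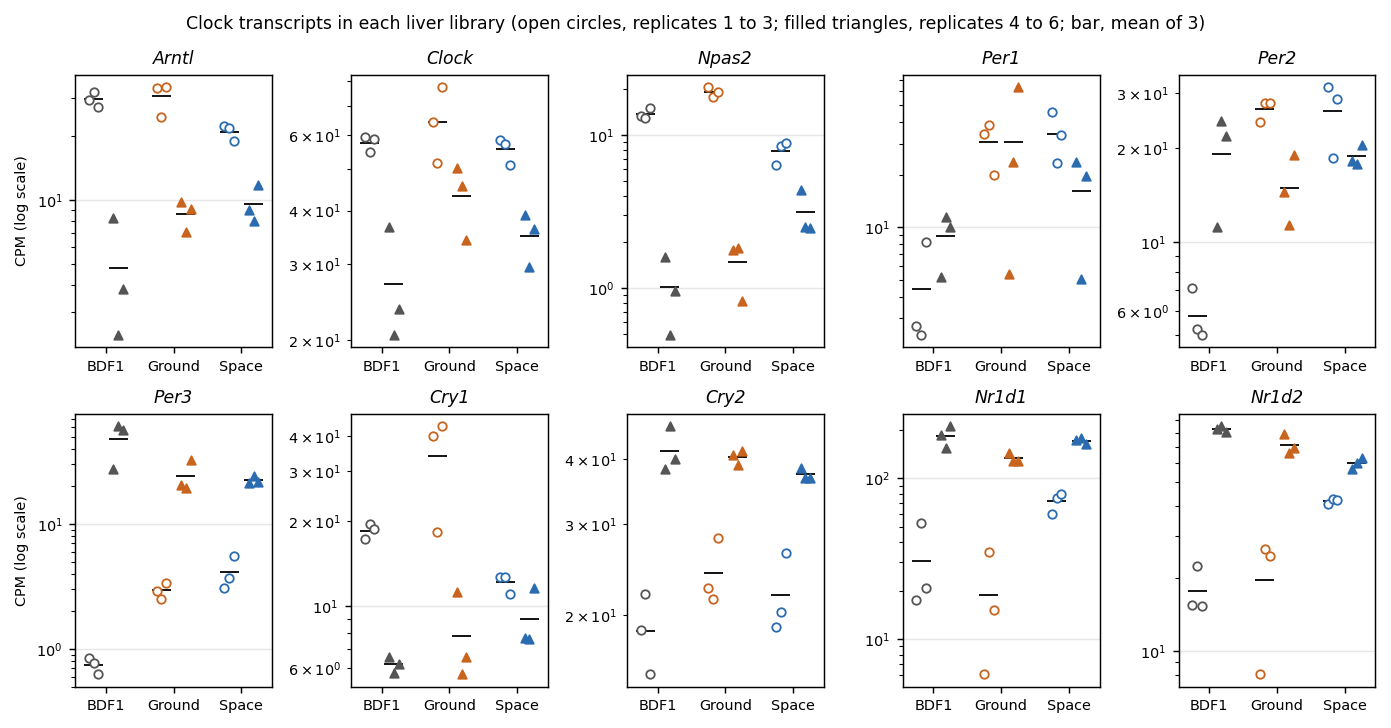
Level of each of the 10 clock transcripts in all 18 libraries, in CPM on a log axis, by group. Open circles are replicates 1 to 3, filled triangles replicates 4 to 6 and bars the mean of 3. In BDF1 the circles and triangles of Per3 lie furthest apart, and the Per1, Per2 and Per3 circles of Ground and Space lie above those of BDF1.

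The Per genes separated the pups from BDF1 in replicates 1 to 3, which cannot be told apart from a difference in collection hour or age. Per1 (chr11:69095217-69109960, plus strand), whose product represses the activators and which also responds acutely to glucocorticoids and feeding, was at 2.73, 2.41 and 8.20 CPM in BDF1, 34.1, 38.5 and 19.9 in Ground and 45.4, 23.5 and 33.6 in Space. The lowest pup value was more than that of any BDF1 liver, and the pup groups overlapped each other. Per1 was higher in Space (log2 change 2.94, SE 0.429, edgeR adjusted p = 0.00270) and in Ground (2.79, SE 0.428, edgeR adjusted p = 0.00713) than in the same BDF1 livers. With 1 library left out at a time, these changes ran from 2.65 to 3.73 in Space and from 2.50 to 3.58 in Ground. With one spread over all 18 libraries, the Ground call was lost (edgeR adjusted p = 0.0571). Among replicates 4 to 6, Per1 was at 5.20, 11.4 and 10.0 CPM in BDF1, 5.43, 23.8 and 63.5 in Ground and 23.5, 5.04 and 19.6 in Space. The highest values in the set were those of Ground replicates 5 and 6 and Space replicate 4, which are also the 3 libraries rich in Serpina6, the gene of corticosteroid-binding globulin. Neither pup group was called against BDF1 there (0.84 for Space, edgeR adjusted p = 0.531, and 1.79 for Ground, edgeR adjusted p = 0.181). Without those 3 libraries, which leaves replicate 4 alone in Ground, the Ground change was -0.71. Taking out the highest Per1 values lowers the Ground change by construction, so that fit does not bear on Serpina6. A link of Per1 to Serpina6 was not tested. Leaving out 1 library at a time, the Ground change ran from 0.72 without Ground replicate 6 to 2.29 without Ground replicate 4. The latter was called (edgeR adjusted p = 0.0443).

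Per2 (chr1:91415982-91459324, minus strand), the repressor whose loss most disturbs behavioural rhythms among the Per genes, was at 7.10, 5.26 and 5.01 CPM in BDF1 replicates 1 to 3, 24.2, 28.0 and 28.0 in Ground and 31.5, 18.6 and 28.9 in Space. Every pup liver lay above every BDF1 liver. The changes were of like size, 2.18 in Space (SE 0.198, edgeR adjusted p = 0.000302) and 2.19 in Ground (SE 0.197, edgeR adjusted p = 0.000437). Its levels in replicates 4 to 6 were 11.1, 24.5 and 21.8 CPM in BDF1, 14.4, 11.3 and 19.0 in Ground and 18.1, 17.8 and 20.5 in Space. The 3 groups overlapped, and neither change was called (-0.03 in Space and -0.37 in Ground, edgeR adjusted p = 0.956 and 0.439). With total-count scaling the Ground change was called (-0.85, edgeR adjusted p = 0.0469).

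Per3 (chr4:151003652-151044665, minus strand), whose level swings widely over the day in liver, spanned the largest range of the members, 6.37 on the log2 scale, rank 94 of 12847 genes tested. In replicates 1 to 3 it was at 0.847, 0.767 and 0.627 CPM in BDF1, 2.94, 2.52 and 3.37 in Ground and 3.06, 3.69 and 5.55 in Space. All pup livers lay above all BDF1 livers, whose values rest on 12 or more counts each. Per3 was higher in Space (log2 change 2.45, SE 0.288, edgeR adjusted p = 0.000885) and in Ground (1.96, SE 0.291, edgeR adjusted p = 0.00625). The other set, replicates 4 to 6, had 27.5, 60.7 and 57.0 CPM in BDF1, 20.5, 19.4 and 32.5 in Ground and 21.3, 24.2 and 21.8 in Space. The 3 Space livers now lay below all BDF1 livers and Ground overlapped BDF1 through BDF1 replicate 4. The changes of -1.11 in Space and -1.01 in Ground were not called as reported (edgeR adjusted p = 0.0611 and 0.0642). Both were called, Space first, by DESeq2 (adjusted p = 0.00544 and 0.0116), with total-count scaling (edgeR adjusted p = 0.0166 and 0.00863), with no filter on low counts (0.0250 and 0.0316), with one spread over 6 means (0.0123 and 0.0148) and without BDF1 replicate 4 (0.0329 and 0.0230).

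Of the Cry genes, Cry1 (chr10:85131700-85185064, minus strand), the late repressor of the loop, was at 17.2, 19.6 and 18.6 CPM in BDF1 replicates 1 to 3, 40.1, 18.3 and 43.3 in Ground and 12.7, 12.7 and 11 in Space. Space lay below both other groups, and Ground replicate 2 sat among the BDF1 livers, apart from the other 2 Ground livers. The summed level of Kupffer cell markers divided the Ground livers in the same way, at 62.0 CPM in replicate 2 against 153 and 141 in replicates 1 and 3, with 58.9 to 86.5 in BDF1 and 61.7 to 84.2 in Space, and its part in the result was not tested. Cry1 was not called by edgeR as reported against BDF1 in Space (-0.61, edgeR adjusted p = 0.167) or Ground (0.87, edgeR adjusted p = 0.0677), nor between Space and Ground (-1.48, SE 0.252, edgeR adjusted p = 0.0660). Without Ground replicate 2 all 3 were called, at -0.61, 1.16 and -1.77 (edgeR adjusted p = 0.00215, 0.000196 and 3.37e-05). With all libraries, the changes of Ground against BDF1 and Space against Ground were called by DESeq2 (0.87 and -1.48, adjusted p = 0.0103 and 4.62e-06) and with no filter on low counts (0.87 and -1.49, edgeR adjusted p = 0.00794 and 0.000303). Cry1 in replicates 4 to 6 was at 5.77 to 6.59 CPM in BDF1, 5.71 to 11.2 in Ground and 7.62 to 11.6 in Space, with no call. Cry2 (chr2:92403646-92434043, minus strand), the second cryptochrome, had the narrowest range of the members (1.58 on the log2 scale) and no edgeR call between groups as reported. With total-count scaling it was called against BDF1 in replicates 4 to 6, at -0.56 in Space and -0.52 in Ground (edgeR adjusted p = 0.0494 and 0.0418). It was at 15.4 to 28.2 CPM in the 9 livers of replicates 1 to 3 and at 36.7 to 46.2 in those of replicates 4 to 6. Exons of Cry2 share 4.67% of their bases with the opposite-strand transcript D930015M05Rik.

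Both Nr1d receptors were higher in every Space liver of replicates 1 to 3 than in the other groups. Of all genes, 36.1% did not overlap between Space and BDF1 in this set and 16.8% between Space and Ground. Nr1d1 (chr11:98767932-98775333, minus strand), which represses Arntl, was at 17.5, 53.1 and 20.8 CPM in BDF1, 6.02, 35.0 and 15.2 in Ground and 60.3, 75.3 and 80.2 in Space. Every Space liver lay above the other 6, but the spread inside BDF1 and Ground was wide and the changes were not called against BDF1 (1.25, SE 0.518, edgeR adjusted p = 0.165) or Ground (1.95, SE 0.533, edgeR adjusted p = 0.175). The change against BDF1 was called with a replicate block (1.47, edgeR adjusted p = 0.0296). With no filter on low counts both were called (1.23 and 1.95, edgeR adjusted p = 0.0392 and 0.0103), and without Ground replicate 2 both were called (1.25 and 2.79, edgeR adjusted p = 0.0474 and 0.00966). Leaving out 1 library at a time, the change against BDF1 ran from 0.96 without BDF1 replicate 1 to 1.91 without BDF1 replicate 2, neither of them called. The levels of Nr1d1 in replicates 4 to 6 were 187, 156 and 211 CPM in BDF1, 144, 129 and 128 in Ground and 173, 179 and 164 in Space. Ground lay below both other groups, and its change of -0.46 against BDF1 was not called as reported (edgeR adjusted p = 0.0681). It was called by DESeq2 (-0.46, adjusted p = 0.0135) and with total-count scaling (-0.92, edgeR adjusted p = 0.0106). Nr1d1 shares 8.55% of its exon bases with Thra on the opposite strand, which had 68 to 365 counts against 123 to 4215 for Nr1d1.

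Nr1d2 (chr14:18204054-18239127, minus strand), the paralog of Nr1d1, was at 15.6, 22.6 and 15.4 CPM in BDF1 replicates 1 to 3, 8.03, 26.4 and 24.8 in Ground and 40.8, 42.4 and 42.0 in Space. The Space livers lay above the other 6. Space against Ground was not called as reported (1.09, edgeR adjusted p = 0.211), and was called with no filter on low counts (1.08, edgeR adjusted p = 0.0298) and without Ground replicate 2 (1.37, edgeR adjusted p = 0.0371). Nr1d2 was higher in Space than in BDF1 (log2 change 1.23, SE 0.330, edgeR adjusted p = 0.0429), a call that was lost without any 1 of the 3 Space or 3 BDF1 livers (edgeR adjusted p from 0.0696 to 0.148) and with total-count scaling (0.0515). The direction was the other way in replicates 4 to 6, with 82.7, 85.1 and 80.5 CPM in BDF1, 79.0, 66.3 and 69.0 in Ground and 56.6, 60.3 and 62.9 in Space. Space was again apart from both groups, now below them, and was lower than BDF1 (-0.47, SE 0.110, edgeR adjusted p = 0.0437). A replicate block (0.136), one spread over all libraries (0.270), no filter on low counts (0.0659) and the removal of Ground replicate 6 or of any 1 Space or BDF1 liver (0.0595 to 0.162) each took that edgeR adjusted p above 0.05. Ground against BDF1 in this set was not called as reported (-0.21, edgeR adjusted p = 0.257), and was called with total-count scaling (-0.68, edgeR adjusted p = 0.0303).

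**Figure D2:**
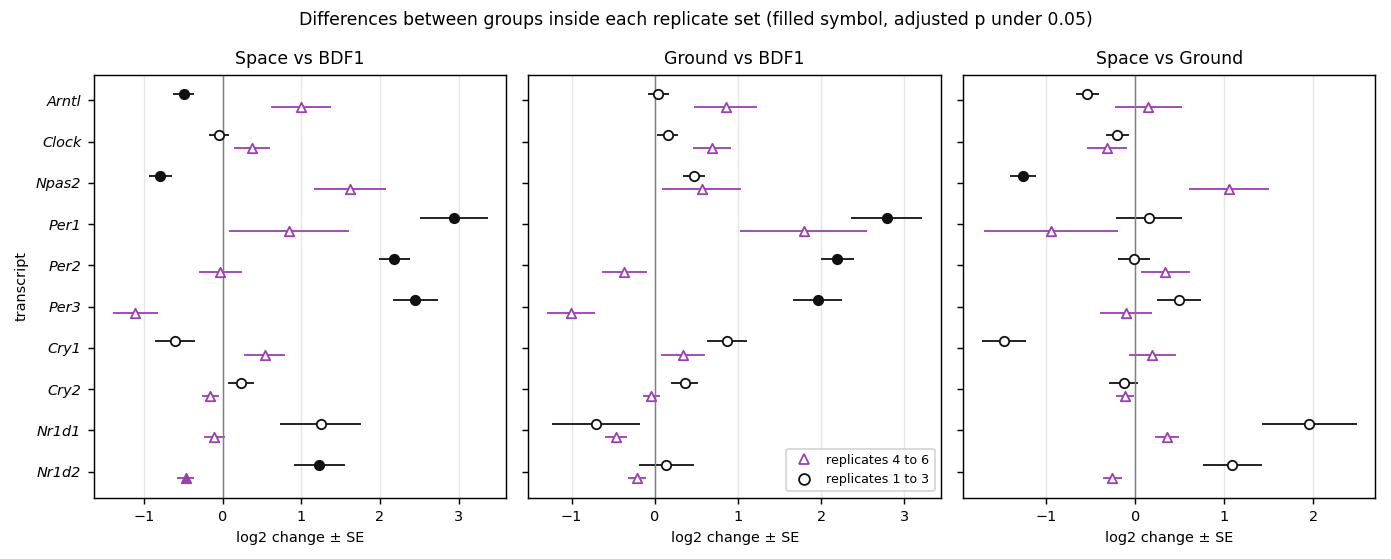
Log2 change of each member between groups, with its SE, in replicates 1 to 3 (circles) and 4 to 6 (triangles). Filled symbols had an edgeR adjusted p under 0.05. The Per1, Per2 and Per3 circles lie between 1.96 and 2.94 against BDF1 in both pup groups, and the Per3 triangles lie at -1.11 and -1.01.

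By count, 6 of the 10 members were called between Space and BDF1 in replicates 1 to 3, 4 higher and 2 lower, where 8.56% of the 12739 genes tested were called (5.07% higher and 3.49% lower). Between Ground and BDF1, 3 were called, all higher, with 4.40% of genes (2.51% higher). Space and Ground share the same BDF1 livers, so the Per values of both comparisons carry the same denominator. Between Space and Ground, 1 member was called, Npas2, on the lower side, with 0.110% of genes, which is 14 genes (0.0392% lower). The median absolute log2 change of the members was 1.01, 0.59 and 0.52 in these comparisons, against 0.20, 0.19 and 0.16 over all genes. In the same order, 8, 4 and 5 members had groups that did not overlap, where 36.1%, 24.4% and 16.8% of genes did. In replicates 4 to 6, 1 member was called, lower, between Space and BDF1 (4.39% of genes, 1.90% lower). None was called between Ground and BDF1 (6.89% of genes) or between Space and Ground (0 of 12983 genes) by edgeR, while 4 and 3 members had an unadjusted p under 0.05 and DESeq2 called 3 and 0. Groups did not overlap for 4, 2 and 4 members in these comparisons, against 32.2%, 30.5% and 13.9% of genes. Markers of stellate cells moved with the comparisons in replicates 1 to 3, where 3 of 4 in Space and 2 of 4 in Ground were higher than in BDF1. Their summed level was 151 to 168 CPM in Space, 131 to 143 in Ground and 94.7 to 118 in BDF1. Sinusoidal endothelial markers summed to 42.8 to 45.5 CPM in Space, with 1 of 4 lower (Clec4g), to 51.1 to 82.9 in Ground, with 1 higher (Stab2), and to 52.8 to 61.9 in BDF1. Hepatocyte markers summed to 85546 to 87014 CPM in Space, with 1 of 5 higher (Ttr), 70091 to 86113 in Ground and 57090 to 71215 in BDF1. Of 5 red blood cell markers Alas2 was higher in both pup groups, and edgeR called none of 5 Kupffer cell markers in this set. Among replicates 4 to 6, 2 of 5 hepatocyte markers (Alb and Apoa1) were higher in both pup groups, with a summed level of 224420 to 277460 CPM in Space, 217010 to 373860 in Ground and 75461 to 97092 in BDF1. Red blood cell markers summed to 200 to 722 CPM in Space, with 2 of 5 higher, 102 to 584 in Ground, with 1 higher, and 32.3 to 87.7 in BDF1. Stab2 was higher in Ground there as well. Pancreas markers summed to 9.26 to 18.7 CPM in Space, 6.56 to 12.3 in Ground and 33.4 to 38.7 in BDF1. Of the 4, Cela1 passed the filter and was lower in both pup groups, and Pnlip was at 0 in every library. Lymphocyte markers summed to 2.36 to 3.16 CPM in Space, 2.14 to 3.28 in Ground and 1.30 to 1.92 in BDF1, with none called by edgeR. The part of these cell types in the results was not tested. Scaling by total counts instead of trimmed means put the median change of all genes there at -0.39 in Space and -0.46 in Ground against BDF1. Under it Clock in Space (-0.03) and Cry1 in Ground (-0.09) changed sign against BDF1.

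The difference between the groups was itself unlike in the 2 sets for several members. In a model of all 18 libraries with 6 means, the Space to BDF1 change differed between sets for 4 members, where 3.19% of 13356 genes did (1.77% higher and 1.42% lower). It was higher in replicates 4 to 6 for Npas2 (2.41, SE 0.429, edgeR adjusted p = 0.00616) and lower for Per2 (-2.21, SE 0.368, edgeR adjusted p = 0.00410), Per3 (-3.56, SE 0.461, edgeR adjusted p = 0.00119) and Nr1d2 (-1.70, SE 0.389, edgeR adjusted p = 0.0249). For Ground against BDF1 it was lower for Per2 (-2.57, SE 0.370, edgeR adjusted p = 0.00289) and Per3 (-2.97, SE 0.468, edgeR adjusted p = 0.00505), where 2.74% of genes were called (1.40% lower). The 2 comparisons share the BDF1 livers of both sets. Arntl was near the threshold for Space (1.503, edgeR adjusted p = 0.0530) and passed it with a replicate block (1.61, adjusted p = 0.0456), by DESeq2 (adjusted p = 0.0118), with no filter on low counts (edgeR adjusted p = 0.0235), with a filter of 1 CPM (0.0499) and without Ground replicate 2 (0.0476), Ground replicate 4 (0.0482) or BDF1 replicate 4 (2.14, 0.00101). Without BDF1 replicate 4 the Arntl difference for Ground rose from 0.81 (edgeR adjusted p = 0.322) to 1.45 and was called (0.0182). Cry1 for Space (1.14, edgeR adjusted p = 0.120) was called without Ground replicate 2 (1.14, 0.0357). The Nr1d2 difference lost its call without 6 of the 18 libraries in turn, Space replicates 1 to 3 and BDF1 replicates 1, 3 and 5 (edgeR adjusted p from 0.0535 to 0.0748). Between Space and Ground no member differed between the sets by edgeR (0 of 13356 genes), while 4 members had an unadjusted p under 0.05 and DESeq2 called 2, Npas2 (2.32) and Cry1 (1.68).

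The sets were also compared inside each group. In BDF1, 9 of the 10 members were called between replicates 4 to 6 and 1 to 3, 5 higher and 4 lower, where 14.6% of genes were (7.29% higher and 7.33% lower). Per3 was higher by 6.00 (SE 0.356, edgeR adjusted p = 1.69e-08), Nr1d1 by 2.60, Nr1d2 by 2.22, Per2 by 1.73 and Cry2 by 1.15. Npas2 was lower at -3.77 (SE 0.317, edgeR adjusted p = 7.11e-07), followed by Arntl at -2.63, Cry1 at -1.58 and Clock at -1.09. Per1, at 1.00 (edgeR adjusted p = 0.392), was the member not called. In Ground 9 members were called as well, 4 higher and 5 lower, where 18.3% of genes were (9.59% higher and 8.71% lower). Per2 was on the lower side there (-0.84, edgeR adjusted p = 0.0295), and Per3 at 3.03, Nr1d1 at 2.84, Npas2 at -3.68 and Cry1 at -2.11 were the furthest moved. The Ground call of Per2 was lost without Ground replicate 2, 3, 4 or 5 (edgeR adjusted p from 0.0644 to 0.119), and that of Clock (-0.57, adjusted p = 0.0472) was lost in 12 of 18 fits that left out 1 library, up to 0.213 without Ground replicate 3. Without the 3 libraries rich in Serpina6, Clock was at -0.37 and Per2 at -0.89. That fit leaves replicate 4 alone in replicates 4 to 6 of Ground, so no call is given. In Space 5 members were called, where 21.9% of genes were (11.6% higher and 10.4% lower): Per3 (2.44) and Cry2 (0.76) higher, and Npas2 (-1.37), Arntl (-1.13) and Clock (-0.68) lower. Nr1d1 in Space was near the threshold (1.25, edgeR adjusted p = 0.0513) and was called with no filter on low counts (0.0263), with a filter of 1 CPM (0.0496) and without Ground replicate 1 or 2 or BDF1 replicate 1 or 2 (edgeR adjusted p from 0.0149 to 0.0479). Nr1d2 in Space (0.52, edgeR adjusted p = 0.192) was called without Ground replicate 1 (0.52, 0.00945). The Clock call in Space was lost without Space replicate 1, 2 or 5 (edgeR adjusted p = 0.0634, 0.0575 and 0.0852). The sets did not overlap for 9 members in BDF1, 9 in Ground and 7 in Space, where 40.9%, 27.5% and 39.9% of genes did not. With total-count scaling Cry2 was no longer called in Ground (0.31, edgeR adjusted p = 0.153) or Space (0.46, edgeR adjusted p = 0.0523), and Per2 was called in Space (-0.78).

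**Figure D3:**
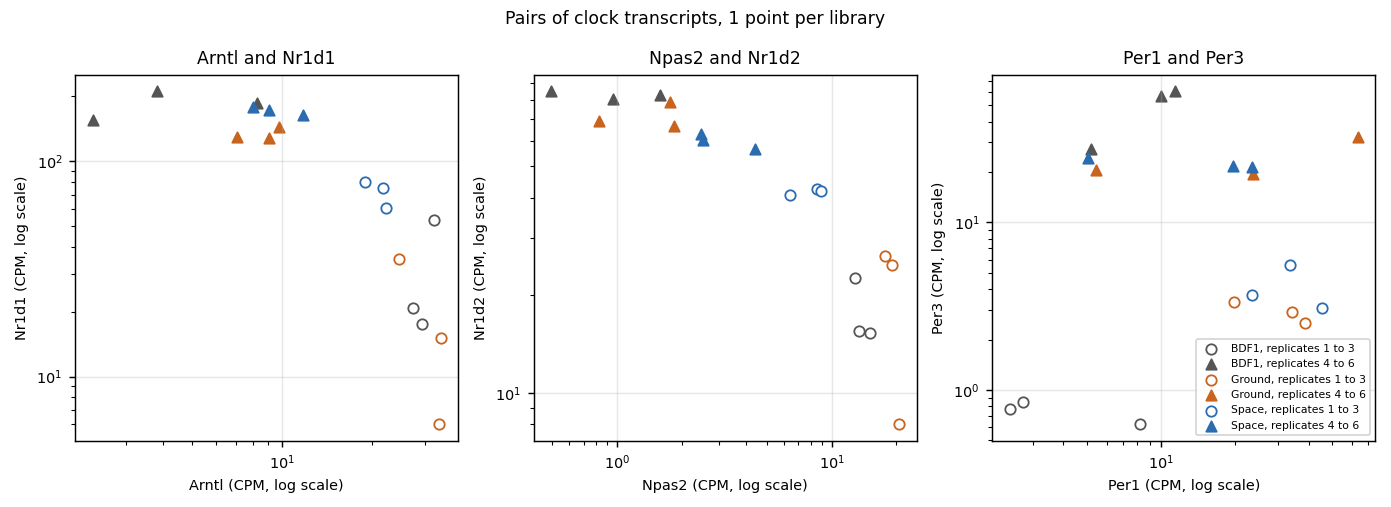
Pairs of clock transcripts, 1 point per library, in CPM on log axes, with colours for the groups, open circles for replicates 1 to 3 and filled triangles for replicates 4 to 6. Every triangle lies above every circle for Nr1d1 and below every circle for Arntl, the Space circles of Npas2 and Nr1d2 lie between the other circles and the triangles, and the BDF1 circles are lowest for Per3.

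The balance of activator and receptor was also taken in each liver. The log2 ratio of Arntl to Nr1d1 was 0.74, -0.72 and 0.40 in BDF1 replicates 1 to 3 and 2.45, -0.50 and 1.16 in Ground, against -1.44, -1.79 and -2.08 in Space. All 3 Space ratios of this set lay below the other 6. The ratios of replicates 4 to 6 were -4.48, -5.998 and -5.75 in BDF1, -3.86, -4.17 and -3.81 in Ground and -4.24, -4.47 and -3.79 in Space. Space and Ground overlapped there, and all 3 BDF1 ratios lay below those of all pup livers, BDF1 replicate 4 by the least. The log2 ratio of Per2 to Per3 was 2.30 to 3.42 in all 9 livers of replicates 1 to 3, although both genes differed between pups and BDF1. The Ground ratios (2.9975, 3.42 and 3.01) all lay above those of BDF1 (2.91, 2.61 and 2.80), and Space overlapped both groups. For replicates 4 to 6 it was -1.38 to -1.29 in BDF1 and -0.77 to -0.09 in the pups, which did not overlap BDF1. These ratios were taken on log2 CPM values and were not tested.

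With the 6 libraries of each group in 1 comparison, no member separated any pair of groups without overlap, where 3.92%, 2.83% and 0.358% of genes did for Space against BDF1, Ground against BDF1 and Space against Ground. For Arntl, Clock, Npas2, Per3, Cry2, Nr1d1 and Nr1d2, all values of one replicate set lay on one side of the other set. Each group holds both sets, so overlap was fixed for these members and says nothing about the groups. Per1 was the member called, in Ground against BDF1 (2.21, SE 0.538, edgeR adjusted p = 0.0344; 3.81% of 12847 genes called, 1.76% higher). Its lowest, median and highest values were 2.41, 6.70 and 11.4 CPM in BDF1, 5.43, 28.9 and 63.5 in Ground and 5.04, 23.5 and 45.4 in Space, so that the groups overlapped at the low end. The Ground call was lost without Ground replicate 1 or 6 or without BDF1 replicate 1, 2, 4, 5 or 6 (edgeR adjusted p up to 0.0798). It was also lost without the 3 libraries rich in Serpina6, which hold the highest Per1 values of replicates 4 to 6 (1.87, edgeR adjusted p = 0.0982). In Space against BDF1, where 3.80% of genes were called, edgeR called no member. There Per1 was at 1.91 (SE 0.535, edgeR adjusted p = 0.0537), 2 members had an unadjusted p under 0.05 and DESeq2 called 1. The Per1 change in Space was called with the replicate set as a covariate (1.89, edgeR adjusted p = 0.0353). It was also called without Space replicate 5 (2.12, edgeR adjusted p = 0.0295), Ground replicate 4 (0.0306) or Ground replicate 6 (0.0469). Between Space and Ground edgeR called none of the members and 0 of all genes, no member had an unadjusted p under 0.05, and DESeq2 called 0 members. The fit over all libraries took no account of the replicate sets, so their differences enter its spread. The SE of Per3 for Space against Ground was 0.996 there, against 0.248 in replicates 1 to 3 and 0.289 in replicates 4 to 6. With the replicate set as a covariate edgeR also called 0 genes between Space and Ground.

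In 6 lists, 29 other genes of the clock pathway were followed through the same comparisons. In replicates 1 to 3 of Space against BDF1, 6 were higher and none lower: Ciart, a repressor of the activator dimer, Noct, which encodes nocturnin (2.66), Alas1, the first enzyme of haem synthesis (2.45), the PAR bZIP factors Dbp (2.09) and Tef (1.21), and the glycogen synthase Gys2 (0.50). No fold is given for Ciart, which had 1 to 6 counts in BDF1 replicates 1 to 3, around the floor of 3, against 26 to 53 in Space and 12 to 24 in Ground. In Ground against BDF1, 9 were higher and none lower, among them Usp2, a ubiquitin protease (2.40), Ciart, Alas1 (1.97) and Noct (1.85), and Rora (0.57), a receptor that competes with the Nr1d proteins for their sites. None was called for Ground in replicates 4 to 6, where Wee1, a cell cycle kinase (-1.10), and Cyp7a1, the rate-limiting enzyme of bile acid synthesis (-2.35), were lower in Space. Between the sets in BDF1, 10 were higher and 2 lower, with Dbp at 7.49, Usp2 at 3.21 and Wee1 at 2.99, with Ciart higher at 43 to 275 counts in replicates 4 to 6, and with Nfil3, a repressor of D-box genes, at -2.04. Nfil3 was also lower in replicates 4 to 6 in Ground (-2.05) and Space (-1.38). These genes were called by edgeR at an adjusted p under 0.05, and the shares of all genes called are those given for the same comparisons above.

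**Figure D4:**
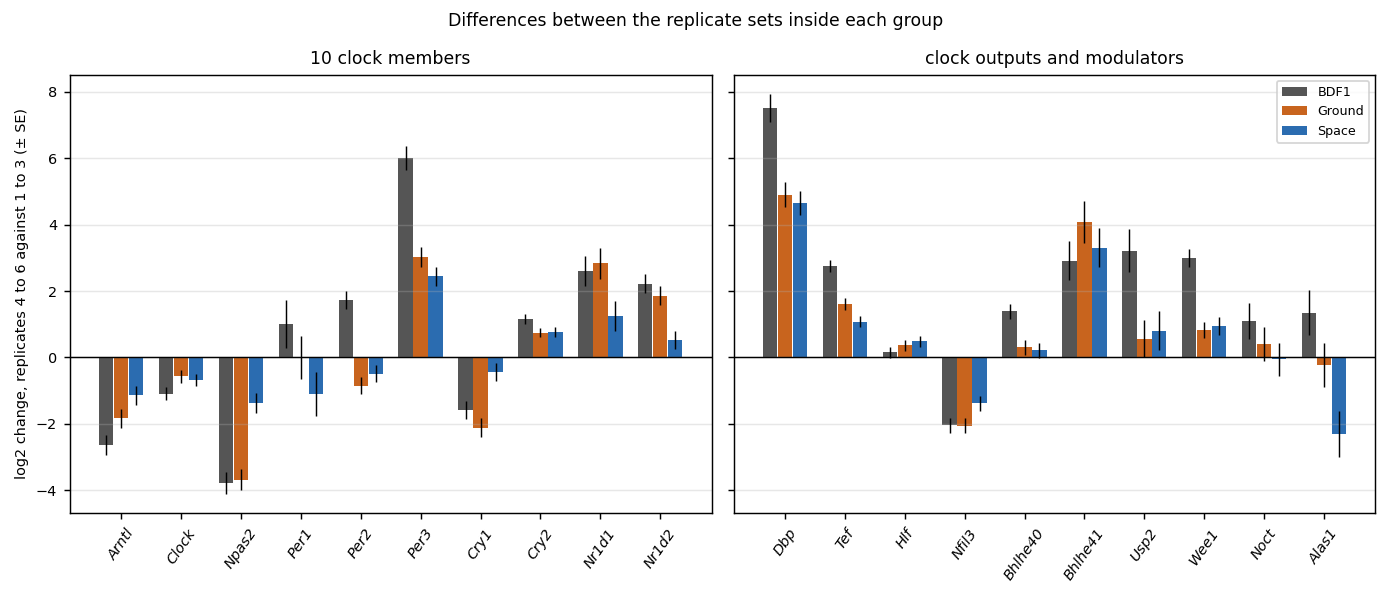
Log2 change of replicates 4 to 6 against 1 to 3 inside each group, with its SE, for the 10 members and for 10 clock outputs and modulators. Bars start at 0. Per3 at 6.00 and Dbp at 7.49 in BDF1 are the tallest, and Arntl, Clock, Npas2, Cry1 and Nfil3 are below 0 in all 3 groups.

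Over all 18 libraries, the tested genes nearest to Arntl in centred log2 CPM included C8a and Nfil3, with root mean square distances of 0.35 and 0.36. Both were lower in replicates 4 to 6 of BDF1, and Nfil3 moved from 67.0 to 16.2 CPM there. Among the members, Cry1 (0.56), Clock (0.66) and Npas2 (0.70) came nearest to Arntl and Per3 was farthest (3.06). The tested genes nearest to Nr1d1 outside the members were D130043K22Rik (0.71), Fmo4 (0.73) and Lnx1 (0.73), of which Lnx1 lay near the detection floor, at 0 to 1.67 CPM. Nr1d2 was closer to Nr1d1 (0.61) than any of these.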

How the data were processed

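Liver RNA was sequenced in 18 libraries (Illumina Stranded mRNA Prep, per the labels). Per the labels and the submitters' processing notes, bcl2fastq 2.20, cutadapt 4.6, HISAT2 2.2.1 and HTSeq 2.0.2 were used with mm10. The study's methods name a TruSeq stranded mRNA kit and another cutadapt version, so the sources differ on both. The strand setting of the counting is not given in the sources used here, so reads of opposite-strand neighbours may be shared. The authors deposited raw counts per gene. Here counts were scaled by trimmed means (TMM) and tested with edgeR 4.0.16 (glmQLFit, glmQLFTest, filterByExpr) in R 4.3.3 with Benjamini-Hochberg adjustment over all genes tested, and an adjusted p under 0.05 was called. Fits covered all libraries by group, each replicate set by group, and 6 means of group by set, which gave the differences between sets. The steps were tested on simulated counts. Log2 CPM used a prior count of 2. DESeq2 1.42.0 and other scalings, filters and designs were alternatives, and each library was left out in turn. All 10 members passed every filter and are named in every comparison. Of each of the 6 lists of other pathway genes up to 4 called were named by size of change. Members and lists were chosen with earlier results of these data known. Same-numbered libraries of different groups correlated at 0.231 to 0.654 in their deviations from group means (18 pairs), no closer than other libraries of the same set (median 0.487 against 0.529), and inside sets the median was -0.05. Positions and exon lengths are from GENCODE M21 and promoters from RefSeq. No pair of libraries in a group agreed within sampling noise. Some genes that the naming rule would give are not reported here.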

Additional observations from a re-analysis of the deposited data

Results flagged for a closer look

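The group difference was unlike in the replicate sets, by the edgeR test of that difference itself, for 4 members in Space against BDF1 and 2 in Ground against BDF1. The values are the log2 change in replicates 4 to 6 minus that in replicates 1 to 3. In Space they were 2.41 for Npas2, -2.21 for Per2, -3.56 for Per3 and -1.70 for Nr1d2, and in Ground -2.57 for Per2 and -2.97 for Per3. Both comparisons use the same BDF1 livers, and the sets cannot be told apart from sex or from a difference in collection hour.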

How the results depend on the processing

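Of 3240 values of single members under the alternatives, 3102 kept their side of the threshold, 70 gained and 68 lost a call. The sign changed in 113, of which 0 were called either as reported or under the alternative. The count of members called (of 10) moved as follows. With DESeq2's test it was 1 for Space against BDF1 over all libraries. In replicates 1 to 3 it was 5 in Ground against BDF1 and 3 between Space and Ground. It was 3 for each pup group against BDF1 in replicates 4 to 6, and 2 for the set difference of Space against Ground. With no filter on low counts it was 5 for Space against Ground in replicates 1 to 3, 1 for Ground against BDF1 in replicates 4 to 6 and 1 for the set difference of Space against Ground. With total-count scaling it was 3 for Space and 5 for Ground against BDF1 in replicates 4 to 6. With one spread over 6 means it was 4 (Space to BDF1), 2 (Ground to BDF1) and 0 (Space to Ground) in replicates 1 to 3, and 3 for Space and 2 for Ground against BDF1 in replicates 4 to 6. The replicate block gave 0 for Space against BDF1 in replicates 4 to 6. The block changed the call of 4 single values, each given beside its result, and no other call of a member. The replicate set as covariate gave 1 for Space against BDF1 over all libraries. Leaving out the 3 libraries rich in Serpina6, chosen after seeing the data, gave 0 for Ground against BDF1 over all libraries. Inside replicates 4 to 6 it leaves Ground replicate 4 alone, so no count is given there. Smaller moves, of at most 1.5 times, were also seen. No filter gave 7 for Space and 4 for Ground against BDF1 in replicates 1 to 3, and total-count scaling gave 5 for Space. The set difference of Space against BDF1 was 5 with DESeq2, no filter, a 1 CPM filter or the block, and total-count scaling gave 3 for that of Ground. Between the sets, Ground had 8 with total-count scaling or DESeq2's size factors, and Space had 6 with no filter or a 1 CPM filter. The causes were not tested.

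Leaving out 1 library at a time gave 0 to 1 members for each pup group against BDF1 and 0 to 0 for Space against Ground over all libraries. In replicates 1 to 3 it gave 4 to 8 for Space and 3 to 4 for Ground against BDF1, and 0 to 5 between Space and Ground, with 8 and 5 both without Ground replicate 2. In replicates 4 to 6 it gave 0 to 2, 0 to 3 and 0 to 0, with 2 and 3 without BDF1 replicate 4. For the set differences it gave 3 to 6 in Space and 2 to 3 in Ground against BDF1, and 0 to 1 for Space against Ground. Between the sets it gave 4 to 7 in Space, 7 to 9 in Ground and 9 to 9 in BDF1. The calls of Per1, Per2, Per3 and Npas2 against BDF1 in replicates 1 to 3 were lost in 0 of these fits.

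Over all genes, DESeq2 called 1030 and 1087 against 488 and 489 by edgeR for Space and Ground against BDF1, and the set as covariate 1330 and 1442. In replicates 1 to 3, Space against Ground had 14 genes by edgeR, 212 by DESeq2, 157 without a filter and 1 with 6 means. In replicates 4 to 6, total-count scaling called 2133 and 4050 genes for Space and Ground against BDF1, 8.81% and 6.27% of them higher, against 570 and 895, with 56.7% and 52.8% higher. The block called 129 and 280 there. The 3 mice per group and set limit the precision, and Per3 in BDF1 and Npas2 in replicates 4 to 6 rest on 11 or more counts per library.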
